A study of Mus musculus with 2 samples.

Results

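Fibrillin microfibrils and elastic fibres of the mitral valve were examined through 10 genes, Fbn1, Fbn2, Mfap2, Mfap5, Eln, Fbln5, Efemp2, Mfap4, Emilin1 and Lox. They were chosen by symbol for their known place in these fibres, from the 32285 features counted in each library. No rule on their values was used, but earlier results of these data were known. All 10 were found in the count matrices and are described in every cell class below.

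Microfibrils are extracellular filaments built from fibrillins, onto which smaller glycoproteins attach and which hold latent growth factor complexes in the matrix. Elastic fibres form when tropoelastin is laid down on a microfibril scaffold with the help of fibulins and is then cross-linked by lysyl oxidase. In heart valves these fibres give the leaflets stretch and recoil, and loss of fibrillin-1 underlies Marfan syndrome, in which the mitral valve is often affected.

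The libraries came from mitral valves of WT mice (Fbn1+/+) and of mgR mice (Fbn1 mgR/mgR), in which both copies of Fbn1 carry a hypomorphic allele in every cell. According to the methods of the study, both genotypes were littermates from intercrosses of heterozygotes on a C57BL/6J background and were 12 weeks old. Collagenase A and elastase were used to digest the leaflets, and viable cells were sorted for droplet capture, so fibre-embedded cells reached the libraries only as far as this digestion released them. Each genotype had 1 library. The legend of the single-cell plots gives n = 3, but neither it nor the labels say how mice or valves were combined in a library. No test of genotype was therefore possible, and each 95% interval below covers counting error only.

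After cells with 200 to 5000 genes and at most 10% mitochondrial UMIs were kept, the WT library held 875 cells with a median of 5033 UMIs, and the mgR library held 3438 cells with a median of 7370. No kept barcode was shared by the libraries. The methods state that male mice were used, but both libraries held Xist-only cells, with Xist UMIs and none from the Y chromosome (28.1% of WT and 60.8% of mgR cells), and Y-only cells with the reverse pattern (38.5% and 21.1%). The 10 genes had 3041 UMIs in the kept cells of the WT library and 13516 in those of the mgR library.

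Cells were classed by marker UMIs: fibroblasts by at least 10 UMIs of Col1a2, Col3a1 and Dcn, macrophages by at least 10 of C1qa, C1qb and C1qc, and endothelium by at least 2 of Pecam1 and Cdh5. Fibroblasts that met this rule alone numbered 322 in WT and 879 in mgR, and 100% and 98.9% of them had a UMI of Pdgfra, Lum, Col1a1 or Dpt, fibroblast markers outside the rule. Of the cells that met the endothelial rule, 60 in WT and 478 in mgR, most in mgR also met the fibroblast rule. These double-rule cells, 28 in WT and 304 in mgR, were kept apart, and 82.1% and 94.1% of them had a UMI of Kdr, Egfl7, Tek, Emcn or Vwf, endothelial markers outside the rule. A UMI of the fibroblast markers outside the rule was found in 71.4% and 63.2% of these double-rule cells. Their median depth, 5515 and 5863 UMIs, was near that of fibroblasts (5182 and 6729). No doublet caller was run, and whether double-rule cells are pairs of cells was not tested. Of the fibroblasts, 28.3% in WT and 26.3% in mgR held at least 2 UMIs of 6 mural markers, led by Abcc9 and Rgs5, whereas Myh11 had 0 UMIs in WT and 20 in mgR fibroblasts.

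Fibroblasts carried most of the RNA of these genes. They held 91.9% of all UMIs of the 10 genes in WT and 81.5% in mgR, at summed levels of 1654 and 1776 UMIs per 1000000 UMIs of the class (CPM). Endothelium that met no other rule stood at 391 and 511 CPM, and double-rule cells stood at 781 and 709 CPM. In macrophages the summed level was 13.2 and 20.8 CPM, and in T cells 4.87 and 4.51 CPM. CPM of 3′ UMI counts carry no term for gene length, so the order of genes below is an order of captured transcripts. In WT fibroblasts that order ran from Mfap4 (615 CPM) over Mfap5, Fbln5, Fbn1, Mfap2, Emilin1, Eln, Efemp2 and Lox to Fbn2 (5.33 CPM). The counting intervals of Mfap5 and Fbln5 overlapped, as did those of Fbln5 and Fbn1, Fbn1 and Mfap2, Mfap2 and Emilin1, and Lox and Fbn2.

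**Figure D1:**
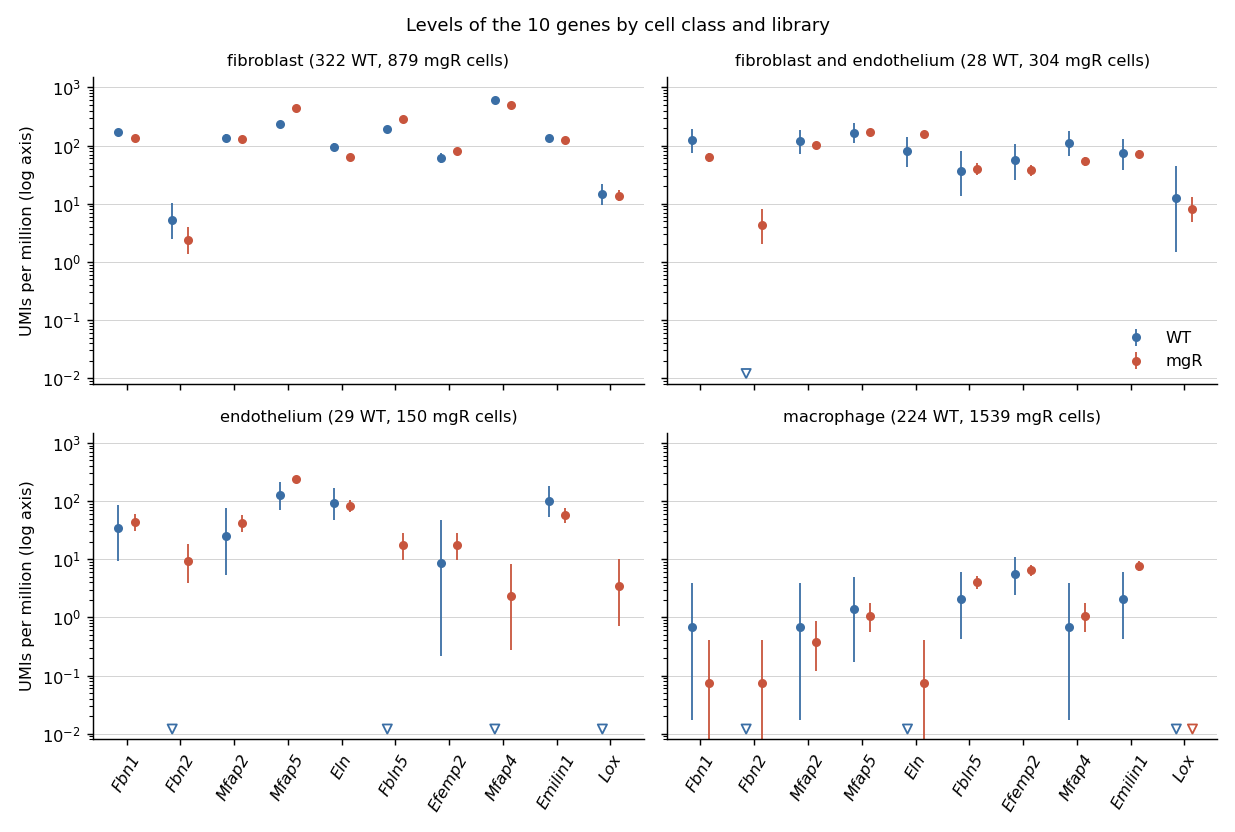
Level of each gene in CPM (log axis) in 4 cell classes, with 1 point per library and exact 95% counting intervals, and open triangles for genes with 0 UMIs. In fibroblasts the levels ran from 2.42 to 615 CPM, and in macrophages no gene exceeded 7.66 CPM.

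Fbn1 encodes fibrillin-1, the main structural protein of microfibrils, and lies on chromosome 2 (125300594 to 125507993, minus strand, GRCm38). In fibroblasts it had 289 UMIs (171 CPM) in WT and 839 (135 CPM) in mgR, a ratio of 0.790 (0.691 to 0.907). The hypomorphic allele was thus still counted, at 79.0% of the WT level in these cells, and these 3′ counts do not show whether the RNA is intact. Over all cells that met the fibroblast rule the Fbn1 ratio was 0.698 (0.614 to 0.795). That set of 353 WT and 1209 mgR cells took in 28 WT and 304 mgR double-rule cells. Every ratio given over it, here and below, thus also carries this mix of cells. In mgR the double-rule cells had endothelial markers outside the rule at 2036.5 CPM, beside 1177 CPM in endothelium that met no other rule. Their fibroblast markers outside the rule stood at 816 CPM, beside 5106 CPM in fibroblasts. In WT the endothelial markers stood at 1512 CPM beside 1046 CPM, and the fibroblast markers at 1667 CPM beside 5533 CPM. In double-rule cells the Fbn1 ratio was 0.511 (0.318 to 0.864), on 20 WT UMIs, so the level depended on how the class was cut. One mgR fibroblast alone held 44 Fbn1 UMIs, against at most 8 in any WT fibroblast. Without the 10 cells with most Fbn1 UMIs in each library the log2 ratio was -0.30, beside -0.34 with them. In macrophages each library held 1 Fbn1 UMI, and T cells held 0 in both.

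Fbn2, which encodes the fibrillin most used in development, was the scarcest of the set. Fibroblasts held 9 Fbn2 UMIs in WT and 15 in mgR (ratio 0.454, 0.186 to 1.18), too few for a difference to be detectable at this depth. All 9 Fbn2 UMIs of the WT library lay in fibroblasts. In mgR, 42.9% of its 35 UMIs did, and 22.9% lay in endothelium and 25.7% in double-rule cells.

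The microfibril-associated glycoproteins MAGP-1 and MAGP-2 bind fibrillin and are encoded by Mfap2 (chromosome 4, 141010418 to 141015984, plus strand) and Mfap5 (chromosome 6, 122505845 to 122529290, plus strand). Their values differed in kind. Mfap2 had 136 CPM in WT and 130 CPM in mgR fibroblasts (ratio 0.952, 0.821 to 1.11), with no difference detectable. Mfap5 had 390 UMIs (231 CPM) in WT fibroblasts and 2796 (451 CPM) in mgR fibroblasts, a ratio of 1.95 (1.76 to 2.18). This was the largest ratio among the 10 genes in fibroblasts. Over all cells that met the fibroblast rule the Mfap5 ratio was 1.65 (1.49 to 1.83). In double-rule cells it was 1.01 (0.683 to 1.56), from 27 WT and 350 mgR UMIs. A single mgR fibroblast held 95 Mfap5 UMIs, but the 10 cells with most held 13.4% of the UMIs in mgR and 24.4% in WT. Without those 10 cells of each library the log2 ratio was 1.11, beside 0.96 with them.

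Eln encodes tropoelastin, the soluble precursor of the elastic core (chromosome 5, 134702593 to 134747323, minus strand, overlapped on the other strand by Gm30003). It had 158 UMIs (93.6 CPM) in WT and 395 (63.7 CPM) in mgR fibroblasts, a ratio of 0.681 (0.565 to 0.824). Its UMIs were concentrated, with the 10 highest cells holding 37.3% of them in WT and 25.6% in mgR. Over all 353 WT and 1209 mgR cells that met the fibroblast rule, whatever other rule they met, the Eln ratio was 0.941 (0.796 to 1.12) and no longer apart from 1.

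Fbln5 and Efemp2 encode fibulin-5 and fibulin-4, which bind tropoelastin and bring it to the microfibril and to lysyl oxidase. Both were higher in mgR fibroblasts. Fbln5 (chromosome 12, 101746565 to 101819055, minus strand) had 193 CPM from 326 UMIs in WT and 282 CPM from 1749 UMIs in mgR, a ratio of 1.46 (1.30 to 1.65). Efemp2 (chromosome 19, 5473954 to 5482517, plus strand, overlapped on the other strand by Mus81) had 62.2 CPM in WT and 80.9 CPM in mgR, a ratio of 1.30 (1.05 to 1.62). Over all cells that met the fibroblast rule, the ratio was 1.23 (1.09 to 1.39) for Fbln5 and 1.15 (0.941 to 1.42) for Efemp2.

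The sequence before the start sites of these fibulin genes is shown because they are the pair of elastin-binding members that were both higher in mgR fibroblasts. The windows are the 250 bases before the first RefSeq start listed for each gene, in the direction of the gene (GRCm38.p6), at chr12:101819120-101819369 on the minus strand for Fbln5 and chr19:5473696-5473945 on the plus strand for Efemp2. Capitals mark CCAAT and CAGAC on either strand, the first the core of the CCAAT box and the second the core of a SMAD-binding element.
Fbln5: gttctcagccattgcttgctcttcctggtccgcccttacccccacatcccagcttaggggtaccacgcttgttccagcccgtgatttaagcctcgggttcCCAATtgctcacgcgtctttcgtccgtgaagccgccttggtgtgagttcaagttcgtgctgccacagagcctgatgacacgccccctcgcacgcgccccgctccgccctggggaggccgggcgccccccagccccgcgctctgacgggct
Efemp2: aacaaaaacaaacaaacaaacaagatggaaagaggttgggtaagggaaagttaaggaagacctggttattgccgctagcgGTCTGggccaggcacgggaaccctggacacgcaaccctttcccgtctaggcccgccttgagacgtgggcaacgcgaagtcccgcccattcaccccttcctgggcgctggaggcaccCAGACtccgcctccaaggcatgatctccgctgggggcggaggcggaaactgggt
The Fbln5 window held 1 CCAAT and 0 CAGAC matches, and the Efemp2 window held 2 CAGAC matches and 0 CCAAT matches. Among 32851 RefSeq promoter windows of the same length, 42.2% held CAGAC and 33.8% held CCAAT. At the other starts listed, the second Fbln5 window held 2 CAGAC and 0 CCAAT matches, and the 2 further Efemp2 windows held 0 of either, so these matches differ by start. Neither printed window held TATAAA, which 12.4% of all windows did. These matches are a description of letters, and binding was not measured.

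Mfap4 encodes a fibrinogen-domain glycoprotein that binds fibrillin and elastin, and it lies on chromosome 11 (61485431 to 61488900, plus strand), overlapped on the other strand by Mapk7. It was the most abundant of the set, with 1038 UMIs (615 CPM) in WT and 3062 (494 CPM) in mgR fibroblasts, a ratio of 0.803 (0.748 to 0.863). Fibroblasts held 96.6% of the Mfap4 UMIs in WT and 95.3% in mgR. Over all cells that met the fibroblast rule its ratio was 0.654 (0.610 to 0.701). That set includes the double-rule cells, which had Mfap4 at 112 CPM in WT and 53.7 CPM in mgR and made up more of the set in mgR.

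Emilin1 encodes a glycoprotein of the elastin and microfibril interface (chromosome 5, 30913402 to 30921277, plus strand), and Lox encodes the lysyl oxidase that cross-links elastin and collagen. Neither differed detectably in fibroblasts. Emilin1 had 133 CPM in WT and 124 CPM in mgR (ratio 0.937, 0.807 to 1.09). Lox had 25 UMIs (14.8 CPM) in WT and 85 (13.7 CPM) in mgR (ratio 0.926, 0.587 to 1.51), and its interval still allows a difference of over 1.5-fold.

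Of the 9 genes with at least 50 UMIs in fibroblasts, 1 (Mfap5) was at least 1.5-fold higher in mgR and 0 were lower by that factor, where 6.14% of 9456 genes were higher and 8.26% were lower. With a difference of 25% or more in place of that factor, 3 were higher (Mfap5, Fbln5 and Efemp2), beside 14.6% of all genes, and 2 were lower by the same ratio (Fbn1 and Eln), beside 22.7% of all genes. The median log2 ratio was -0.10 over the 9 genes and -0.05 over all 9456. With 9 genes, these counts do not set the members apart as a group. Fibroblasts had endothelial check markers at 9.47 CPM in WT and 39.0 CPM in mgR, and macrophage check markers at 11.3 and 15.5 CPM. Their part in these ratios was not tested.

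**Figure D2:**
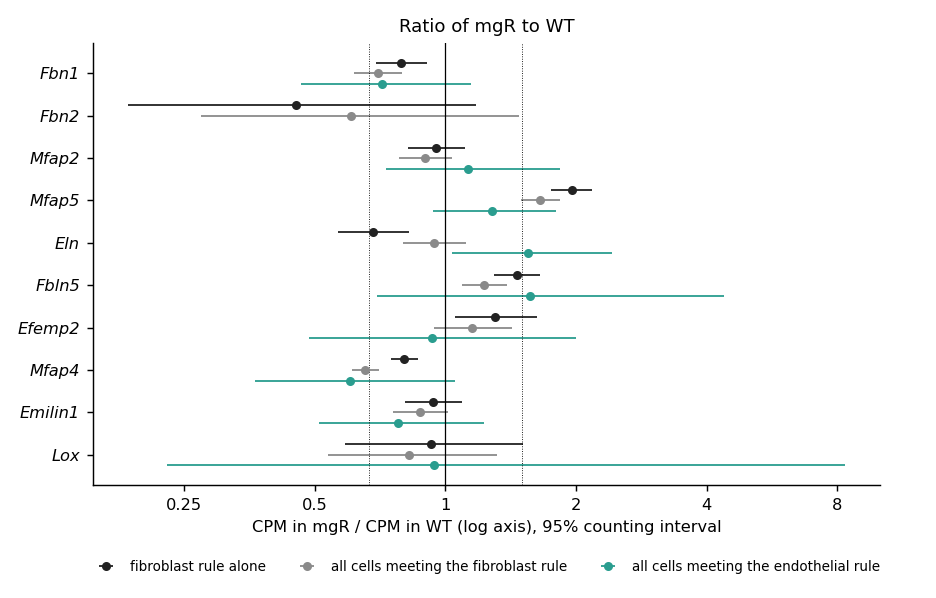
Ratio of mgR to WT CPM for each gene (log axis) with exact 95% counting intervals, in cells that met the fibroblast rule alone, in all that met it and in all that met the endothelial rule; dotted lines mark a factor of 1.5 either way and genes with 0 WT UMIs are left out. Mfap5 had the highest fibroblast ratio (1.95), and Eln stood at 0.681 in cells that met the fibroblast rule alone, 0.941 in all that met it and 1.55 in all that met the endothelial rule.

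Fibroblasts were divided by which of 2 marker sets had more UMIs. Ptx3, Igfbp3 and Smoc2 marked 126 cells in WT and 310 in mgR. Fmod, Prg4 and Scx, markers of a tendon-like program, marked 117 in WT and 394 in mgR. The other 79 and 175 cells had fewer than 2 UMIs of either set or equal numbers. Mfap5 was higher in mgR in each of these, by a ratio of 1.77 (1.47 to 2.15) in the Ptx3 set, 1.79 (1.56 to 2.06) in the Fmod set and 2.85 (1.96 to 4.27) in the rest. In both libraries it stood higher in the Fmod set, at 331 CPM in WT and 592 CPM in mgR, than in the Ptx3 set, at 193 and 341 CPM.

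For Fbln5 the ratio was 1.04 (0.865 to 1.26) in the Ptx3 set and 1.74 (1.46 to 2.08) in the Fmod set, where it had 207 CPM in WT and 360 CPM in mgR. For Eln the ratio was 0.799 (0.609 to 1.06) in the Ptx3 set, 0.409 (0.300 to 0.560) in the Fmod set and 1.60 (0.928 to 2.94) in the rest. The Fmod set had an Eln level of 97.2 CPM in WT and 39.7 CPM in mgR. For Efemp2 the ratio was 1.23 (0.903 to 1.70) in the Ptx3 set, 1.46 (1.01 to 2.16) in the Fmod set and 1.31 (0.788 to 2.30) in the rest. Mfap4 was lower in mgR in the Ptx3 set (0.690, 0.615 to 0.777) and in the Fmod set (0.839, 0.759 to 0.930). Fbn1 was at 0.817 (0.668 to 1.004) and 0.731 (0.590 to 0.912). Differences between the sets were not tested, because each set had 1 library per genotype. With the mgR sets weighted by their WT shares, an alternative chosen after the data had been seen, the log2 ratio of Mfap5 was 0.90, that of Fbln5 0.49 and that of Eln -0.48.

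The libraries also differed in the share of Xist-only fibroblasts, 25.2% in WT and 59.5% in mgR, so genotype and this share cannot be told apart in the pooled ratios. Within cells of the same kind, Mfap5 kept its direction, with a ratio of 2.39 (1.93 to 2.997) in Xist-only and 2.04 (1.73 to 2.41) in Y-only fibroblasts. Eln was lower in Xist-only fibroblasts (0.606, 0.430 to 0.872) and near 1 in Y-only fibroblasts (1.03, 0.764 to 1.38). For Mfap4 it was the Y-only fibroblasts that were lower (0.742, 0.660 to 0.834), and the Xist-only ones lay near 1 (0.986, 0.861 to 1.13). Fbln5 was at 1.32 (1.09 to 1.62) and 1.20 (0.976 to 1.47) in Xist-only and Y-only cells, and Fbn1 was at 0.661 (0.531 to 0.829) and 0.844 (0.671 to 1.06). Efemp2 was at 1.29 (0.878 to 1.95) and 1.23 (0.879 to 1.74), above 1 in both, with intervals that held 1.

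**Figure D3:**
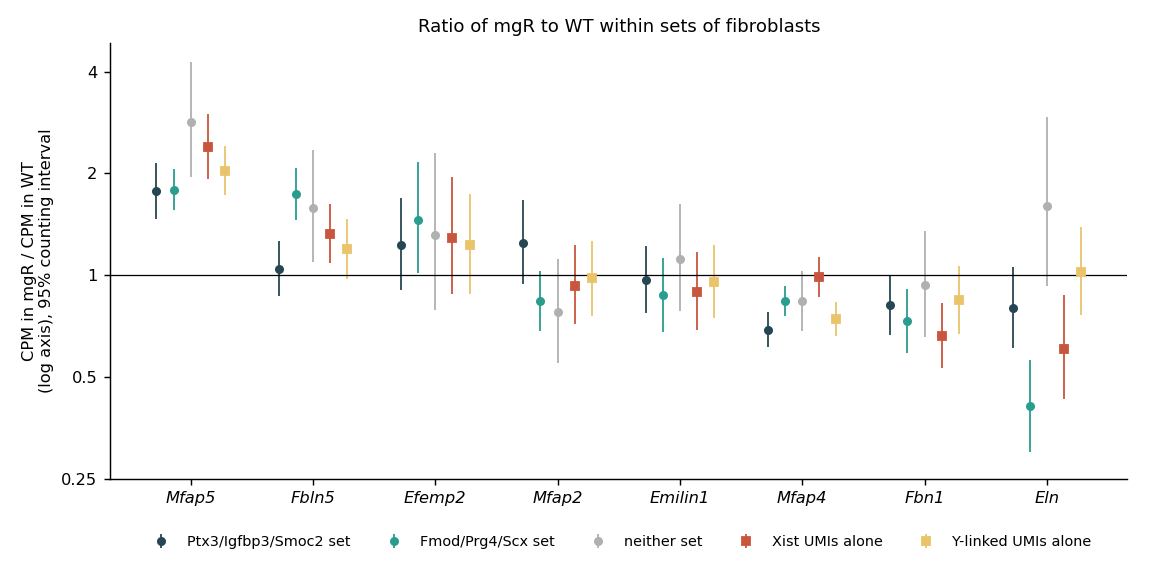
Ratio of mgR to WT CPM (log axis) of 8 genes within sets of fibroblasts, with exact 95% counting intervals; circles are sets by fibroblast markers and squares sets by sex-linked UMIs. Mfap5 lay between 1.77 and 2.85 in all 5 sets, whereas Eln lay between 0.409 and 1.60.

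Shares of fibroblasts with a UMI were compared after each cell had been thinned to 2000 UMIs, which left out 30 WT and 33 mgR fibroblasts as too shallow. Mfap5 was found in 25.7% (20.8 to 31.1) of WT and 39.8% (36.5 to 43.2) of mgR fibroblasts, so it was counted in more cells and not only at higher numbers in a few. Mfap4 was found in 47.3% (41.4 to 53.2) and 38.9% (35.6 to 42.3). The intervals of WT and mgR overlapped for Mfap4 and for the 8 other genes, among them Fbn1 (24.7% and 20.8%), Eln (12.7% and 9.46%), Fbln5 (29.5% and 33.8%) and Efemp2 (11.99% and 14.9%). Before thinning, the Mfap5 shares were 39.4% and 57.6%. A UMI of any of the 10 genes was found in 87.3% of WT and 86.6% of mgR fibroblasts, beside 3.21% and 4.42% of macrophages treated the same way. Thinned fibroblasts held a median of 2 of the 10 genes in both libraries.

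**Figure D4:**
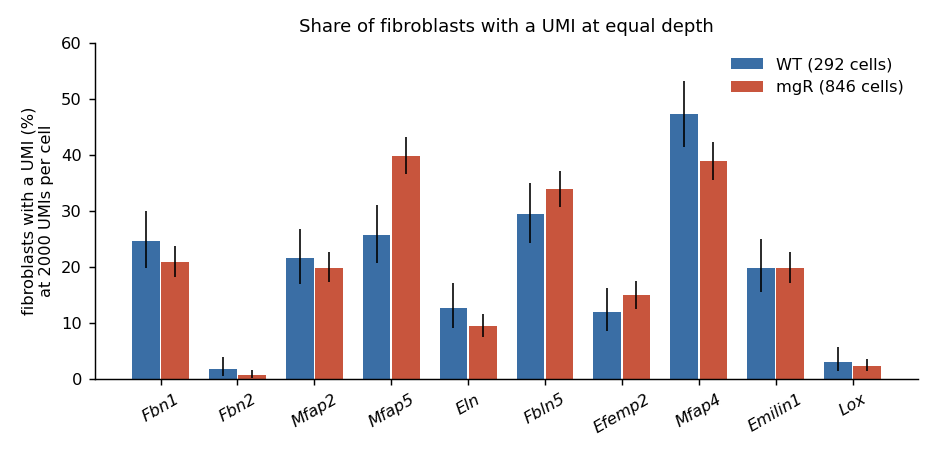
Percent of fibroblasts with at least 1 UMI of each gene after thinning to 2000 UMIs per cell (292 WT and 846 mgR cells); bars start at 0 and carry exact 95% Clopper-Pearson intervals. The intervals are apart for Mfap5, found in 25.7% of WT and 39.8% of mgR cells.

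Apart from Fbn2 with its few UMIs, Eln was the member whose place among cell classes differed most between the libraries. In WT, 84.9% of its UMIs lay in fibroblasts, 5.91% in endothelium and 6.99% in double-rule cells. In mgR the shares were 47.8%, 8.59% and 39.9%. These shares also carry the numbers of cells, since the mgR library had more double-rule cells. Per 1000000 UMIs, double-rule cells had 80.5 CPM of Eln from 13 UMIs in WT and 160 CPM from 330 UMIs in mgR (ratio 1.98, 1.14 to 3.76). Endothelium that met no other rule had 93.6 CPM from 11 UMIs in 29 WT cells and 81.4 CPM from 71 UMIs in 150 mgR cells, with no difference detectable.

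Over all cells that met the endothelial rule, Eln had 82.2 CPM from 25 UMIs in WT and 128 CPM from 412 UMIs in mgR, a ratio of 1.55 (1.04 to 2.43). Of 8 members with at least 50 UMIs there, 1 (Eln) was at least 1.5-fold higher, where 10.7% of 7415 genes were, and 1 (Mfap4) was lower by that factor, where 14.1% of genes were. None of the 8 had 50 UMIs in the WT library alone, where Mfap5 had most (42). Eln reached the minimum only through the library in which it was high, so its place past the factor is not a result about the members. Over these cells Mfap4 had 18 UMIs in WT and 115 in mgR (ratio 0.601, 0.364 to 1.05), and its interval did not exclude 1. All 18 WT UMIs lay in 4 double-rule cells, and endothelium that met no other rule had 0 in WT and 2 in mgR. Fbln5 stood at a ratio of 1.57 (0.696 to 4.38), but on 6 WT UMIs, and with the prior count of 0.5 it fell short of the factor. Mfap5 was at 138 and 177 CPM (1.28, 0.937 to 1.80) and Fbn1 at 78.9 and 56.4 CPM (0.714, 0.465 to 1.14). The WT side of each of these values rests on 60 cells. A single WT cell held 10 of the 24 Fbn1 UMIs. For Fbn1, Mfap5 and Mfap4 the ratio in Xist-only endothelial cells lay on the other side of 1 from the pooled ratio. For Fbn1 it did so in Y-only cells too. Each of these intervals held 1, so no turn in direction was detectable. On the WT side Fbn1 had 5 UMIs in Xist-only and 2 in Y-only cells, and Mfap4 had 2 in Xist-only cells. In Xist-only and Y-only cells Fbn1 was at 1.29 (0.539 to 4.05) and 2.72 (0.698 to 23.3), Mfap5 at 0.859 (0.534 to 1.47) and 1.98 (1.07 to 4.05), and Mfap4 at 2.30 (0.618 to 19.3) and 0.220 (0.0990 to 0.505). Eln was at 1.21 (0.646 to 2.56) and 2.25 (0.994 to 6.30), above 1 in both, with intervals that held 1.

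**Figure D5:**
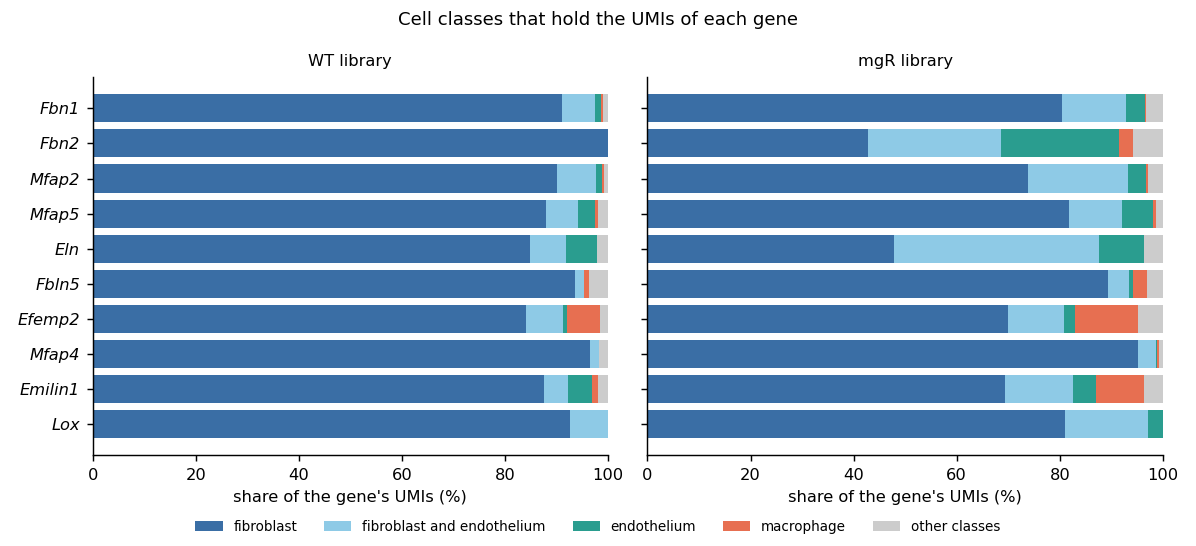
Share of each gene's UMIs (%) that lay in each cell class, by library. Fibroblasts held 84.9% of Eln UMIs in WT and 47.8% in mgR, and macrophages held 12.1% of Efemp2 UMIs in mgR.

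Macrophages had few UMIs of these genes, and most of those they had were of Emilin1, Efemp2 and Fbln5. Emilin1 had 3 UMIs (2.08 CPM) in 224 WT and 103 (7.66 CPM) in 1539 mgR macrophages. Efemp2 had 8 (5.54 CPM) and 87 (6.47 CPM), and Fbln5 had 3 (2.08 CPM) and 54 (4.01 CPM). In mgR the macrophage level was 7.99% of the fibroblast level for Efemp2 and 6.16% for Emilin1, but 0.211% for Mfap4 and 0.117% for Eln. In WT it was 8.91% for Efemp2 and 1.57% for Emilin1. The fibroblast rule genes Col1a2, Col3a1 and Dcn stood at 0.118% of their fibroblast level in WT macrophages and 0.130% in mgR macrophages. These low values are partly set by the rules, since cells that met the fibroblast rule were left out of the macrophages. Fibroblast markers outside the rule, Pdgfra, Lum, Col1a1 and Dpt, stood at 0.125% in WT and 0.186% in mgR macrophages. Efemp2 also stood at 4.18% of its fibroblast level in mgR T cells, on 3 UMIs, and had 0 UMIs in WT T cells. The part of free RNA in these counts was not tested.

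The Emilin1 ratio in macrophages was 3.69 (1.23 to 18.2) and that of Fbln5 was 1.93 (0.627 to 9.67), both on 3 WT UMIs. Both reached 50 UMIs only through the mgR library, so no count past a factor is given. After thinning, Emilin1 was found in 0.459% (0.0116 to 2.53) of WT and 1.78% (1.18 to 2.58) of mgR macrophages, so no difference was detectable in the share. Lox had 0 UMIs in macrophages of either library, which allows up to 2.08 CPM in WT and 0.223 CPM in mgR. Melanocytes, marked by Dct, Pmel, Mlana and Tyrp1, held Fbln5 at 201 CPM (107 to 344; 13 UMIs in 23 WT cells) and 288 CPM (124 to 567; 8 UMIs in 8 mgR cells). Their intervals held the fibroblast levels (193 and 282 CPM), and melanocytes had 0 UMIs of Fbn1, Mfap5 and Eln in both libraries.

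The wider pathway was followed in fibroblasts through 5 lists of genes. Of 11 microfibril-associated genes, 9 had enough UMIs (at least 50), 0 were higher and 1 was lower by the factor of 1.5, beside 6.14% and 8.26% of all genes, with a median log2 ratio of -0.20. Ltbp4 and Vcan, which encode a latent TGF-β binding protein and versican, had most UMIs, with ratios of 0.654 (0.619 to 0.692) and 0.757 (0.711 to 0.807). Ltbp4, which also guides elastic fibre assembly, was the 1 lower gene, at 1058 CPM in WT and 692 CPM in mgR.

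Of 9 further genes of elastic fibre assembly and the EMILIN family, 5 had enough UMIs, 1 was higher and 1 lower, beside 6.14% and 8.26% of all genes, and their median log2 ratio was -0.03. Fbln1 and Fbln2, encoding fibulin-1 and fibulin-2, had most UMIs, with ratios of 0.865 (0.823 to 0.910) and 1.13 (1.01 to 1.27). Efemp1, encoding fibulin-3, was lower (0.618, 0.552 to 0.693) and Fbln7, encoding fibulin-7, was higher (2.03, 1.22 to 3.601). These last 2 were named after their values had been seen. Fbln7 had only 17 UMIs in WT fibroblasts, beside 127 in mgR, so it had enough UMIs only through the library in which it was high. With Fbln7 left aside, the fibulins lay on both sides of 1, with Fbln5, Efemp2 and Fbln2 above and Fbln1 and Efemp1 below.

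Of 7 genes of cross-linking and processing, 5 had enough UMIs and 0 passed the factor, beside 6.14% of all genes higher and 8.26% lower, with a median log2 ratio of -0.13. The lysyl oxidase relatives Loxl1 and Loxl2 had most UMIs, with ratios of 0.813 (0.725 to 0.914) and 1.13 (0.950 to 1.36). Of 8 proteases that cleave elastin or matrix, 5 had enough UMIs, 1 was higher and 1 lower, beside the same shares of all genes, and the median log2 ratio was -0.16. Ctsl (cathepsin L) and Mmp2 (gelatinase A) had most UMIs, with ratios of 0.898 (0.850 to 0.949) and 0.752 (0.694 to 0.815). Mmp14 was lower (0.591, 0.494 to 0.709), and Ctss was higher (4.78, 2.25 to 12.1), both named after their values had been seen. Ctss had 7 UMIs in WT and 123 in mgR fibroblasts, so it reached the minimum of 50 only through the library in which it was high. Ctss had 1929 and 1784 CPM in macrophages beside 4.15 and 19.8 CPM in fibroblasts.

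Of 8 integrin subunits that bind microfibril proteins, 6 had enough UMIs, 0 were higher and 2 were lower, beside 6.14% and 8.26% of all genes, with a median log2 ratio of -0.27. Itgb1 and Itgb5 had most UMIs, with ratios of 0.828 (0.768 to 0.892) and 1.17 (0.993 to 1.38). The 2 lower subunits, named after their values had been seen, were Itga5 (0.649, 0.502 to 0.845) and Itga8 (0.604, 0.510 to 0.718). Each list median stands beside -0.05 for all 9456 genes.

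The genes most like Fbn1 and Eln in their pattern were sought over 16 sums of cells by class and library, among 9470 genes with at least 200 UMIs. For Fbn1 they were Mxra8 (Pearson r 0.989), Spon1 (0.984) and Lynx1 (0.982). For Eln they were Ahsg (0.990), Gata6 (0.990) and Gata4 (0.989). The 16 sums share 2 libraries and differ in depth, so these values describe likeness of pattern only.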

How the data were processed

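The authors made the deposited counts, which are UMI counts per gene and cell barcode from 10x 3′ v3 libraries, with Cell Ranger 7.1.0 and build mm10 per the submitters' processing notes. The annotation release, the intron setting and the use of strand are not given in the sources used here. Barcodes numbered 1104 (5381844 UMIs) in WT and 3802 (28215539 UMIs) in mgR before filtering, and 2 barcodes occurred in both. From these counts, cells were filtered as the study describes, classed by marker UMIs, and summed per class and library. Levels are UMIs per 1000000 of the class sum with exact Poisson intervals. Ratios carry exact conditional binomial intervals and shares exact Clopper-Pearson intervals (95%). Log2 ratios outside the intervals use a prior count of 0.5, and a level allowed by 0 UMIs is that of 3 counts. The factor of 1.5 was applied to genes with at least 50 UMIs in a class. Cells were thinned at random to 2000 UMIs with a fixed seed. The scripts for ratios, intervals and thinning were tested on simulated data.

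T cells, mural cells and melanocytes were classed among cells that met none of the 3 rules by at least 3 UMIs of their markers. Other cells were put in no class. The members, gene lists and alternatives were chosen with earlier results of these data known. All 10 members are reported. Of each of 5 pathway lists the 2 genes with most fibroblast UMIs are named, and for Fbn1 and Eln the 3 genes of highest Pearson r. Positions come from GENCODE M21 (GRCm38, the build also called mm10), matched by gene ID. Promoter sequences come from RefSeq (GRCm38.p6), and windows were obtained for 5 of the 10 genes. Python 3.11.15, numpy 2.4.6, scipy 1.17.1, pandas 2.3.3 and matplotlib 3.10.9 were used. Of the alternatives, 22 were listed at the start, and 2 were added after the data had been seen. They changed the fold, the minimum, the class rules, the scale, the depth, the mitochondrial limit or the cells left out.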

Additional observations from a re-analysis of the deposited data

Results flagged for a closer look

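Eln drew attention because its ratio of mgR to WT was 0.681 (0.565 to 0.824) in cells that met the fibroblast rule alone and 1.55 (1.04 to 2.43) over all cells that met the endothelial rule, most of which in mgR also met the fibroblast rule. The ratio of 1.55 rested on 25 WT UMIs, beside 412 in mgR. The contrast between the classes depended on how they were cut. In cells that met 1 rule alone the ratios were 0.681 in fibroblasts and 0.870 (0.458 to 1.82) in endothelium, and over all cells meeting each rule they were 0.941 (0.796 to 1.12) and 1.55. The difference between the classes was not tested, since each class had 1 library per genotype.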

How the results depend on the processing

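The direction of Mfap5 was the same under all 11 alternatives computed for fibroblasts, with log2 ratios of 0.72 or more. Eln ran from -0.85 to 0.031 and reversed to 0.031 in Y-only fibroblasts. Over all cells that met the fibroblast rule it was -0.09. Fbn1 ran from -0.60 to -0.16, Mfap4 from -0.61 to -0.02 and Fbln5 from 0.26 to 0.66. The number of members past the factor in fibroblasts, 1 as reported, was 5 with a difference of 25% as the limit. It was 2 with no minimum count (Fbn2 added), with all cells that met the fibroblast rule (Mfap4 added), with at least 20 marker UMIs or median-of-ratios scaling (Fbln5 added), and with a mitochondrial limit of 5% or without cells with 2 mural UMIs (Eln added). It was 3 after thinning (Eln and Lox added), without the 10 cells with most UMIs of each gene (Fbln5 and Lox added) and in Xist-only cells (Fbn1 and Eln added). Mfap5 was among them each time. Over all cells that met each rule, the summed level was 1558 CPM in WT and 1468 CPM in mgR fibroblasts, and 572 CPM in WT and 616 CPM in mgR endothelium. The median log2 ratio of the 3 members counted in endothelium was -0.25 in cells that met that rule alone and 0.34 over all that met it. Median-of-ratios scaling moved every log2 ratio by 0.07 in fibroblasts and 0.11 in endothelium. The cause of these shifts was not tested. Without the 10 highest cells no median could be had in endothelium, since WT kept 0 UMIs of some genes. No paired analysis was possible because each genotype had 1 library, and no replicate could be left out. Depth limits Fbn2, Lox and every WT value in endothelium.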
